A study of Homo sapiens and synthetic construct with 52 samples.

Results

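The 40 genes described here code for the machinery that copies DNA in human cells, and they were read out as sgRNA counts in pooled CRISPR interference (CRISPRi) screens. Members were chosen by symbol: a guide belonged to the set when its name, up to its first separator, was one of 40 listed gene symbols. This gave 200 sgRNAs, 5 for each gene, of 103074 sgRNAs in the CRISPRi tables, which target 18788 genes and include 1895 non-targeting controls. The genes were grouped by role into 8 origin licensing genes (ORC1 to ORC6, CDC6 and CDT1), 12 helicase genes (MCM2 to MCM7, MCM10, CDC45 and GINS1 to GINS4), 9 polymerase genes (POLA1, POLA2, PRIM1, PRIM2, POLD1, POLD2, POLD3, POLE and POLE2), 6 clamp genes (PCNA and RFC1 to RFC5) and 5 RPA and flap genes (RPA1, RPA2, RPA3, LIG1 and FEN1). The study compared a re-cloned copy of a genome-wide CRISPRi V2 sgRNA library, named LGR, with the publicly distributed copy, named legacy, in K562 cells, a line from a patient with chronic myeloid leukemia that carries the BCR-ABL1 fusion kinase. All the cells carried dCas9-KRAB, a Cas9 without cutting activity joined to a repressor domain, so a guide placed near a start site lowers transcription of its gene and no DNA is cut.

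Survival screens with the LGR library were kept at 1000-fold coverage (cells per sgRNA), with 3 end point samples (Tf) and 1 starting sample (T0), or at 100-fold coverage, with 4 Tf and 2 T0 samples. Transduced cells were selected for 3 days in puromycin, started 2 days after infection, and the cultures then ran for 7 days. The sources used here do not spell out on which of these days T0 was taken. Dasatinib screens were run at 100-fold coverage with the LGR and with the legacy library, each with 2 samples treated with 0.75 nM dasatinib for 72 h and left to recover for 6 days, 2 samples given 0.01% DMSO for 72 h with the same recovery, and 2 T0 samples collected 7 days after infection. Dasatinib is a tyrosine kinase inhibitor that blocks BCR-ABL1. Each dasatinib screen came from 1 transduction that was then split, so its samples are technical replicates, and p-values over them measure the spread after the split. The paper also calls samples of the 100-fold survival screen technical replicates, so p-values over survival samples carry a like limit. Each library also had 1 plasmid pool, and 8 samples per library came from a titration in which cells were transduced at 10-fold, 50-fold, 100-fold and 200-fold coverage.

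Before a cell divides, the origin recognition complex (ORC), CDC6 and CDT1 load the MCM2 to MCM7 ring onto DNA as an inactive double hexamer. In S phase the ring is joined by CDC45 and the GINS complex and becomes the moving helicase, polymerase alpha with its primase subunits lays down primers, and polymerases delta and epsilon copy the lagging and leading strands. Replication factor C (RFC) loads the PCNA clamp that keeps the polymerases on DNA, RPA coats the exposed single strand, and FEN1 and LIG1 trim and seal the Okazaki fragments of the lagging strand. A guide that stops a dividing cell from copying its DNA is passed on to fewer daughter cells, so its count falls relative to non-targeting guides.

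Total reads per sample ran between 15739255 and 170431221, and every CRISPRi sample listed all 200 member guides. The guides were well filled at the start, with at most 1 of 200 at a count of 0 in any plasmid pool or T0 sample of the survival and dasatinib screens (3 to 6 in the 10-fold titration samples), and sparse at the end of the 100-fold experiments. Between 1 and 4 member guides were at 0 in the 1000-fold Tf samples, 20 to 35 in the 100-fold Tf samples, and 32 to 41 in the DMSO and dasatinib samples. Each gene was read in several ways. The gene phenotype was the mean of the 3 strongest guides' log2 enrichment relative to the median non-targeting guide, over guides with a mean count of 50 or more in either arm, and a gene was called when an exact two-sided Mann-Whitney test of its guides against the non-targeting guides passed an adjusted p of 0.05 over all genes. This test is over guides, not over samples. edgeR tested single guides over samples, and edgeR on gene sums tested the counts of all 5 guides of a gene added together, which needs no minimum and covers all 40 members.

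Guides to the replication genes were depleted in all 4 growth comparisons. In the 1000-fold survival screen 28 of 40 members were called lower at Tf than at T0, where 7.9% of all genes were. In the 100-fold screen 29 of 40 were called lower, against 7.31% of all genes. With DMSO against T0, 23 of 39 scored members were called lower in the LGR screen, where 6.78% of all genes were, and 23 of 39 in the legacy screen, where 6.14% were. No member was called higher in any of these 4 comparisons. The median member phenotype was -3.72 in the 1000-fold screen, -4.32 in the 100-fold screen, -2.24 in LGR DMSO and -3.01 in legacy DMSO on the log2 scale, beside -0.05, -0.11, -0.11 and -0.12 for all genes. The DMSO and dasatinib comparisons score a narrower set of guides: 60 of 200 member guides fell under the minimum count in LGR DMSO against T0, and those 60 had a median log2 enrichment of -4.63 in the 1000-fold screen, against -1.39 for the 140 that passed. In the legacy DMSO comparison the 52 guides left out had a median of -4.47 there and the 148 that passed -1.66, so the guides left out were stronger on the whole. Of the guides that passed, 82 with LGR and 78 with legacy did so through T0 alone, and 0 through DMSO alone. Such guides had fewer reads in DMSO by that rule, so the DMSO counts and medians are not free of the filter. Without a minimum 28 of 40 members were called lower with LGR (7.62% of all genes) and 26 of 40 with legacy (7.04%). A minimum of 100 lowered the LGR DMSO count to 14 of 33 scored members (5.36% of all genes). It lowered the legacy DMSO count to 10 of 33 (4.63%). A normal approximation of the Mann-Whitney test, tried after the data were seen, gave 12 of 39 (4.61%) and 15 of 39 (3.75%).

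**Figure D1:**
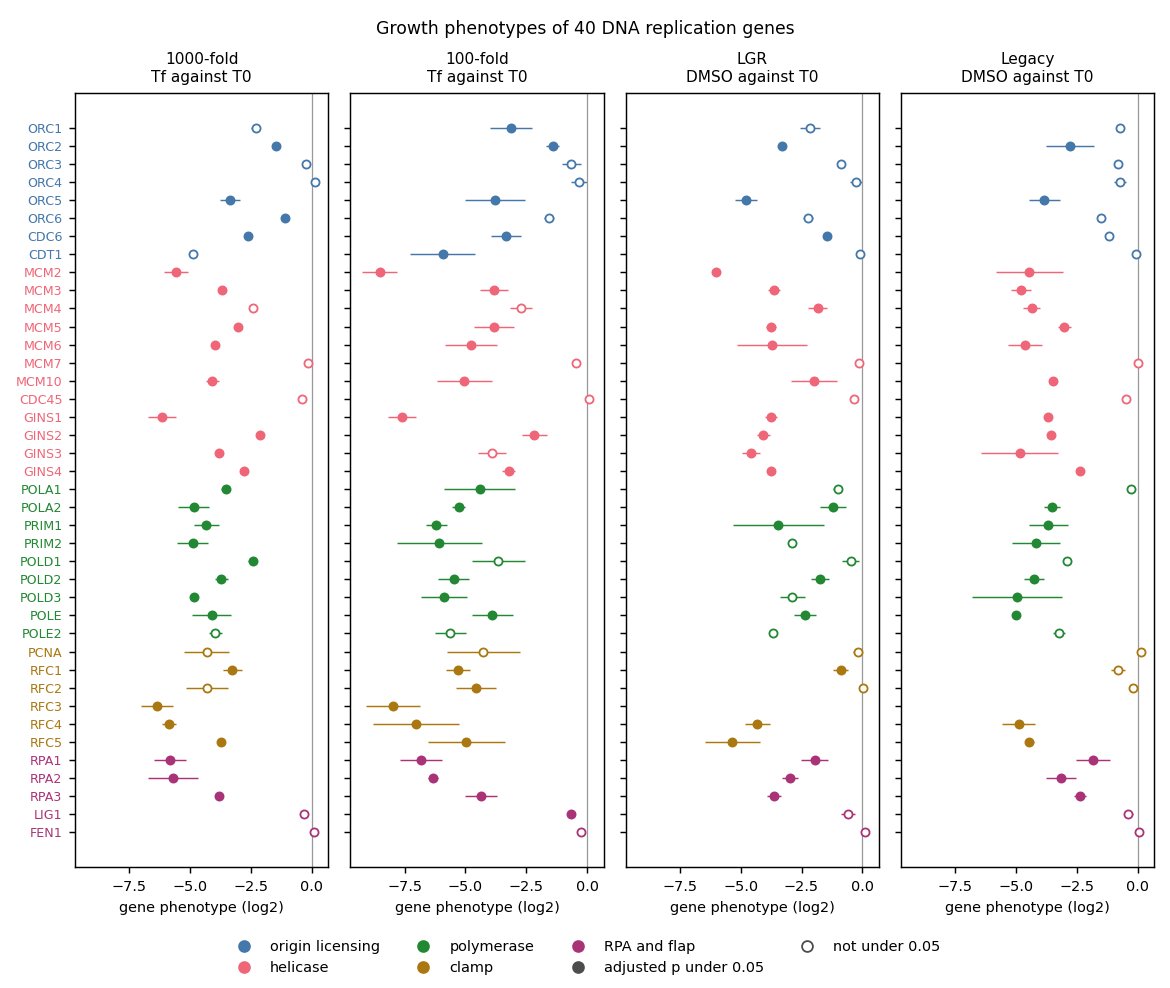
Gene phenotypes of the 40 replication genes in 4 growth comparisons; each point is the mean log2 enrichment of a gene's 3 strongest guides, bars are the SD over samples of the first-named arm, colors mark the role group and filled points passed an adjusted p of 0.05. Most genes lie well left of 0 in every panel, while ORC3, ORC4, MCM7, CDC45, LIG1 and FEN1 lie near 0.

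Single guides and gene sums gave the same direction. By edgeR 152 of 200 member guides were lower in the 1000-fold screen, where 9.07% of all guides were, and 129 of 200 in the 100-fold screen, where 5.68% were. In DMSO against T0, 102 of 196 tested member guides were lower with the LGR library, against 7.42% of all guides, and 105 of 196 with the legacy library, against 6.88%. Without T0 replicate 1 or 2 the 100-fold count was 71 or 70 (3.07% or 3.04% of all guides). Without T0 sample A or B the DMSO count was 38 or 40 with LGR (3.28% or 3.34% of all guides) and 65 or 59 with legacy (4.01% or 4.1%). The only member guide called higher in these comparisons targets MCM7 (PAM at position 99698070, hg19), with a log2 fold change of 0.43 ± 0.13 (SE, adjusted p = 0.0189 by edgeR) in the 1000-fold screen. Summed over their 5 guides, 36 of 40 members were lower in the 1000-fold screen and 35 of 40 in the 100-fold screen, where 17.1% and 9.24% of all genes were. Gene sums were lower for 30 of 40 members in LGR DMSO and for 30 of 40 in legacy DMSO, against 10.6% of all genes in each. Across the 4 growth comparisons, 19 members were called lower by gene score in all 4, 5 in 3 of them, 3 in 2, 6 in 1 and 7 in none. This tally was not made over all genes, so it has no share to be set beside. The 7 in none were ORC3, ORC4, MCM7, CDC45, POLE2, PCNA and FEN1, and they differ among themselves: POLE2 and PCNA had strong guides beside inactive ones, and the other 5 had no guide under -0.90 in the 1000-fold screen. Here and below, active and inactive mean only that a guide was depleted or stayed near 0 in that screen. Knockdown was not measured in these counts, and why guides of 1 gene differ was not tested.

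The role groups differed in median phenotype. In the 1000-fold screen the median phenotype was -1.89 for origin licensing (4 of 8 called), -3.37 for the helicase (9 of 12), -4.12 for the polymerases (8 of 9), -4.31 for the clamp (4 of 6) and -3.83 for RPA and flap (3 of 5). The 100-fold screen gave -2.34 (5 of 8), -3.82 (8 of 12), -5.49 (7 of 9), -5.14 (5 of 6) and -4.36 (4 of 5) in the same order. In LGR DMSO the medians were -1.79 (3 of 8), -3.74 (10 of 12), -2.34 (4 of 9), -0.89 (3 of 5) and -1.95 (3 of 5). In legacy DMSO they were -0.99 (2 of 8), -3.62 (10 of 12), -3.67 (6 of 9), -0.79 (2 of 5) and -1.83 (3 of 5). Origin licensing was thus the shallowest group in the survival screens. The clamp median was nearest 0 in DMSO, where RFC3 had no guide above the minimum count and PCNA and RFC2 kept only their inactive guides. The DMSO medians therefore do not rank the groups. Over all 5 guides, relative to plasmid, the clamp was at -3.62 and -4.77 in LGR DMSO and -3.62 and -3.51 in legacy DMSO. Origin licensing was at -2.69 and -2.76 and at -1.84 and -1.68 there, and these levels include the fall before T0. These group medians carry no test.

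Among the origin licensing genes, CDT1, the licensing factor that brings the MCM ring to ORC, and ORC5, an ORC subunit, had the lowest phenotypes in the 1000-fold screen. The 5 guides of ORC5 together held 10.4, 11.1 and 9.78 CPM (read counts scaled to the same total in every sample) in the 1000-fold Tf samples, against 37.5 CPM in T0, and 11.1, 15.4, 7.12 and 13.0 CPM in the 100-fold Tf samples, against 35.0 and 38.8 CPM in T0. They held 3.98 and 3.36 CPM in LGR DMSO, against 31.2 and 26.4 CPM in T0, and 10.1 and 6.22 CPM in legacy DMSO, against 37.8 and 37.1 CPM in T0. Every later sample lay below every T0 sample. The log2 fold changes of the ORC5 sums were -1.90 ± 0.11 and -1.70 ± 0.22 in the survival screens and -2.22 ± 0.19 in legacy DMSO (SE, adjusted p = 1.79e-69, 2.36e-07 and 1.73e-09 by edgeR on gene sums), and ORC5 was called in LGR DMSO as well (adjusted p = 2.38e-09). CDT1 guides held 26.0, 25.3 and 23.8 CPM in the 1000-fold Tf samples, against 35.3 CPM in T0, a modest fall of the sum (-0.55 ± 0.07, adjusted p = 1.44e-12 by edgeR on gene sums). Its phenotype of -4.86 ± 0.10 (SD, n = 3) came from 3 guides between -5.85 and -4.10 that lie within 24 bases of each other, while the other 2 guides, 428 bases away, were at -0.16 and 0.09. CDT1 was not called by gene score in the 1000-fold screen (adjusted p = 0.0942, exact Mann-Whitney) and was called in the 100-fold screen (-5.93 ± 1.34, SD, n = 4, adjusted p = 0.00424, exact Mann-Whitney).

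ORC2 and CDC6, which recruits CDT1 to ORC, were also called lower in both survival screens, with phenotypes of -1.48 ± 0.10 and -2.62 ± 0.16 (SD, n = 3) in the 1000-fold screen. ORC1 guides, to the largest ORC subunit, held 17.8, 19.4 and 18.8 CPM in the 1000-fold Tf samples, against 30.6 CPM in T0. At 100-fold coverage ORC1 was at 14.3, 14.7, 16.0 and 14.8 CPM in Tf, against 31.9 and 31.3 CPM in T0. They did not overlap between Tf and T0, and ORC1 was called in the 100-fold screen (-3.11 ± 0.86, SD, n = 4, adjusted p = 0.00201, exact Mann-Whitney) and in none of the other 3 (adjusted p = 0.0686 in the 1000-fold screen). In DMSO the ORC1 sums were 11.7 and 15.8 CPM against 24.6 and 19.3 CPM in T0 for LGR, and 15.8 and 14.8 CPM against 18.2 and 22.1 CPM in T0 for legacy. ORC6 guides held 26.5, 25.0 and 26.6 CPM in the 1000-fold Tf samples, against 38.1 CPM in T0, and this was its only gene score call (-1.08 ± 0.09, SD, n = 3, adjusted p = 0.000157, exact Mann-Whitney). ORC6 sums were 22.6, 25.0, 19.2 and 30.3 CPM in the 100-fold Tf samples against 35.5 and 35.6 CPM in T0, 19.4 and 22.5 CPM in LGR DMSO against 34.5 and 34.5 CPM in T0, and 36.0 and 42.4 CPM in legacy DMSO against 48.0 and 55.3 CPM in T0, and edgeR on gene sums called each lower (adjusted p = 0.0102, 0.000735 and 0.017).

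ORC3 and ORC4, subunits of the same complex, kept most of their starting level. ORC3 guides held 48.5, 48.6 and 51.8 CPM in the 1000-fold Tf samples, against 51.4 CPM in T0. At 100-fold coverage ORC3 was at 51.1, 42.6, 40.2 and 39.9 CPM in Tf, against 49.2 and 50.9 CPM in T0. In DMSO ORC3 guides held 46.0 and 44.5 CPM against 49.3 and 60.4 CPM in T0 for LGR, and 48.3 and 43.2 CPM against 61.5 and 58.6 CPM in T0 for legacy, where the sum was lower (-0.42 ± 0.11, SE, adjusted p = 0.00685 by edgeR on gene sums). ORC4 guides held 37.8, 35.2 and 37.6 CPM in the 1000-fold Tf samples, against 32.5 CPM in T0, with all 3 Tf samples above T0, and 34.8, 34.4, 36.4 and 28.3 CPM in the 100-fold Tf samples, against 34.0 and 36.4 CPM in T0. Their DMSO levels were 31.4 and 38.0 CPM against 34.6 and 41.9 CPM in T0 for LGR and 20.8 and 23.0 CPM against 28.3 and 27.4 CPM in T0 for legacy. No gene score or gene sum call was made for ORC4 in the 4 growth comparisons.

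The helicase group ranged from genes close to 0 to GINS1 and MCM2, its lowest 1000-fold phenotypes. GINS1, a subunit of the GINS complex, was at 1.504, 1.62 and 1.72 CPM in the 1000-fold Tf samples, against 51.8 CPM in T0. At 100-fold coverage GINS1 was at 2.73, 1.65, 2.23 and 1.21 CPM in Tf, against 53.1 and 54.4 CPM in T0. In LGR DMSO it was at 1.51 and 3.07 CPM, against 13.5 and 13.2 CPM in T0, and in legacy DMSO at 0.859 and 1.63 CPM, against 11.7 and 12.1 CPM in T0. No later sample came near its T0, and all 5 GINS1 guides lay between -6.76 and -4.00 in the 1000-fold screen. The GINS1 phenotype was -6.14 ± 0.58 (SD, n = 3) in the 1000-fold screen and -7.60 ± 0.57 (SD, n = 4) in the 100-fold screen, and the gene sum fell by 5.05 ± 0.13 and 4.82 ± 0.25 on the log2 scale (SE, edgeR). MCM2, a ring subunit, was at 1.997, 1.94 and 1.18 CPM in the 1000-fold Tf samples, against 48.4 CPM in T0, and at 1.05, 0.988, 2.27 and 0.622 CPM in the 100-fold Tf samples, against 45.9 and 50.6 CPM in T0. Its DMSO samples held 0.0602 and 0.116 CPM with the LGR library, against 13.6 and 10.9 CPM in T0, and 2.12 and 1.51 CPM with the legacy library, against 13.9 and 12.7 CPM in T0. MCM2 had the lowest member phenotype of the 100-fold screen, -8.53 ± 0.73 (SD, n = 4).

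MCM3, MCM5, MCM6, MCM10, GINS2 and GINS4 were called lower in all 4 growth comparisons, as were GINS1 and MCM2, and GINS3 in 3 of 4. Their 1000-fold phenotypes were -3.70 for MCM3, -3.03 for MCM5, -4.00 for MCM6, -4.08 for MCM10, a factor that activates the loaded helicase, -2.14 for GINS2, -2.79 for GINS4 and -3.80 for GINS3. In MCM4, another ring subunit, 3 guides lay between -3.12 and -1.22 and the other 2 at -0.16 and 0.24 in the 1000-fold screen. The gene was called in both DMSO comparisons and in neither survival screen (adjusted p = 0.213 and 0.175, exact Mann-Whitney). Neither DMSO call for MCM4 held each time a sample was left out. MCM4 guides held 28.4, 30.6 and 30.8 CPM in the 1000-fold Tf samples, against 56.3 CPM in T0. At 100-fold coverage MCM4 was at 32.0, 27.8, 31.2 and 29.8 CPM in Tf, against 52.3 and 55.2 CPM in T0. In DMSO MCM4 guides held 20 and 18.5 CPM against 39.9 and 38.2 CPM in T0 for LGR and 17.2 and 18.9 CPM against 33.9 and 36.5 CPM in T0 for legacy. All 4 sets were separate, and edgeR on gene sums called MCM4 lower in each (log2 fold change -0.97 ± 0.06, -0.87 ± 0.12, -1.05 ± 0.14 and -0.99 ± 0.15, SE).

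MCM7 and CDC45 stood apart from the rest of the helicase. MCM7 guides held 59.0, 62.9 and 62.8 CPM in the 1000-fold Tf samples, against 61.5 CPM in T0. At 100-fold coverage MCM7 was at 58.2, 66.2, 56.0 and 56.4 CPM in Tf, against 68.0 and 64.6 CPM in T0. In DMSO MCM7 guides held 55.0 and 65.8 CPM against 61.1 and 58.8 CPM in T0 for LGR and 56.9 and 53.1 CPM against 58.1 and 51.2 CPM in T0 for legacy. The later and the T0 samples overlapped in all 4 sets, and no call was made for MCM7 by gene score or gene sum. CDC45 guides held 63.2, 59.6 and 64.4 CPM in the 1000-fold Tf samples, all below 67.7 CPM in T0 (-0.17 ± 0.05, SE, adjusted p = 0.00322 by edgeR on gene sums), and 70.5, 67.0, 73.0 and 74.9 CPM in the 100-fold Tf samples, against 62.8 and 69.5 CPM in T0. Their DMSO levels were 69.1 and 59.9 CPM against 63.5 and 61.0 CPM in T0 for LGR and 49.6 and 50.3 CPM against 55.2 and 50.8 CPM in T0 for legacy. The other ring subunits and the GINS subunits are partners of MCM7 and CDC45 in 1 helicase, so genes of the same complex gave a wide span of readings.

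Every polymerase gene had a phenotype of -2.43 or lower in the 1000-fold screen. PRIM2, the large primase subunit, was at 2.26, 3.01 and 2.60 CPM in the 1000-fold Tf samples, against 31.6 CPM in T0, and at 1.56, 0.768, 7.04 and 2.38 CPM in the 100-fold Tf samples, against 38.5 and 28.3 CPM in T0. In DMSO it was at 1.87 and 0.926 CPM against 7.26 and 6.85 CPM in T0 for LGR and at 1.72 and 0.988 CPM against 16.6 and 11.1 CPM in T0 for legacy. Tf and DMSO samples lay below T0 throughout, and the 4 log2 fold changes of the PRIM2 sum were -3.65 ± 0.16, -3.54 ± 0.43, -2.36 ± 0.49 and -3.37 ± 0.35 (SE, edgeR). POLD3, an accessory subunit of polymerase delta, was at 3.59, 4.499 and 5.17 CPM in the 1000-fold Tf samples, against 41.2 CPM in T0, and at 7.17, 3.46, 2.75 and 4.28 CPM in the 100-fold Tf samples, against 38.7 and 39.7 CPM in T0. Its DMSO levels were 1.63 and 1.33 CPM against 9.78 and 14.0 CPM in T0 for LGR and 0.687 and 0.813 CPM against 11.1 and 11.5 CPM in T0 for legacy. The other 1000-fold phenotypes of this group were -3.54 for POLA1 (catalytic subunit of polymerase alpha), -4.85 for POLA2 (its regulatory subunit), -4.34 for PRIM1 (the primase catalytic subunit), -2.43 for POLD1 and -4.12 for POLE (catalytic subunits of polymerases delta and epsilon), -3.72 for POLD2 and -3.96 for POLE2 (their second subunits).

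POLA1 was called in 2 of the 4 growth comparisons, POLD1 in 1 and POLE2 in none. POLA1 guides held 12.9, 13.9 and 14.5 CPM in the 1000-fold Tf samples, against 34.4 CPM in T0. At 100-fold coverage POLA1 was at 10.3, 12.2, 10.6 and 11.1 CPM in Tf, against 36.5 and 29.7 CPM in T0, and the gene was called in both. In DMSO POLA1 guides held 10.5 and 11.1 CPM against 20.6 and 19.4 CPM in T0 for LGR and 30.0 and 29.7 CPM against 34.6 and 34.4 CPM in T0 for legacy, with gene sum fold changes of -0.91 ± 0.20 and -0.23 ± 0.13 (SE, adjusted p = 0.00283 and 0.304 by edgeR). POLD1 guides held 16.7, 16.5 and 18.4 CPM in the 1000-fold Tf samples, against 32.0 CPM in T0 (called, adjusted p = 0.0169, exact Mann-Whitney). At 100-fold coverage POLD1 was at 12.5, 14.1, 12.3 and 16.5 CPM in Tf, against 26.9 and 31.1 CPM in T0. Its DMSO levels were 16.1 and 13.4 CPM against 19.2 and 21.0 CPM in T0 for LGR and 20.3 and 21.1 CPM against 30.0 and 33.5 CPM in T0 for legacy. POLE2 had no gene score call: 4 of its guides lay between -4.48 and -1.51 in the 1000-fold screen and 1 was at 0.25, and that guide sits 6 bases from an active one. Its guides held 14.8, 14.9 and 14.9 CPM in the 1000-fold Tf samples, against 35.4 CPM in T0. At 100-fold coverage POLE2 was at 11.2, 16.1, 8.68 and 15.3 CPM in Tf, against 31.8 and 34.5 CPM in T0. In DMSO POLE2 guides held 10.5 and 11.3 CPM against 18.1 and 19.7 CPM in T0 for LGR and 7.62 and 13.5 CPM against 23.6 and 25.5 CPM in T0 for legacy. The POLE2 groups did not overlap in any of the 4, and edgeR on gene sums called it lower in each (adjusted p = 1.1e-40, 7.72e-06, 0.00894 and 9.78e-05).

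RFC3 and RFC4, small subunits of the clamp loader, were nearly lost. RFC3 guides held 0.937, 1.16 and 0.901 CPM in the 1000-fold Tf samples, against 39.4 CPM in T0. At 100-fold coverage RFC3 was at 0.614, 0.622, 1.27 and 0 CPM in Tf, against 36.7 and 44.1 CPM in T0. In DMSO RFC3 guides held 0.662 and 0.984 CPM against 8.67 and 8.13 CPM in T0 for LGR, and 1.38 and 0.755 CPM against 7.99 and 7.12 CPM in T0 for legacy. RFC3 had the lowest member phenotype of the 1000-fold screen, -6.36 ± 0.64 (SD, n = 3), and its sum fell by 5.35 ± 0.17 on the log2 scale there, by 3.36 ± 0.49 in LGR DMSO and by 2.84 ± 0.43 in legacy DMSO (SE, adjusted p = 2.66e-05 and 1.65e-05 for DMSO by edgeR). RFC4 guides held 1.42, 1.36 and 1.51 CPM in the 1000-fold Tf samples, against 35.2 CPM in T0. At 100-fold coverage RFC4 was at 1.09, 2.18, 1.62 and 0.878 CPM in Tf, against 30.2 and 32.5 CPM in T0. In DMSO RFC4 guides held 0.422 and 0.752 CPM against 10.5 and 13.2 CPM in T0 for LGR and 1.38 and 2.27 CPM against 17.4 and 17.1 CPM in T0 for legacy. RFC5 was called in all 4 growth comparisons (-3.71 ± 0.11 in the 1000-fold screen, SD, n = 3) and RFC1, the large subunit, in 3 of 4 (-3.26 ± 0.38, SD, n = 3).

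**Figure D2:**
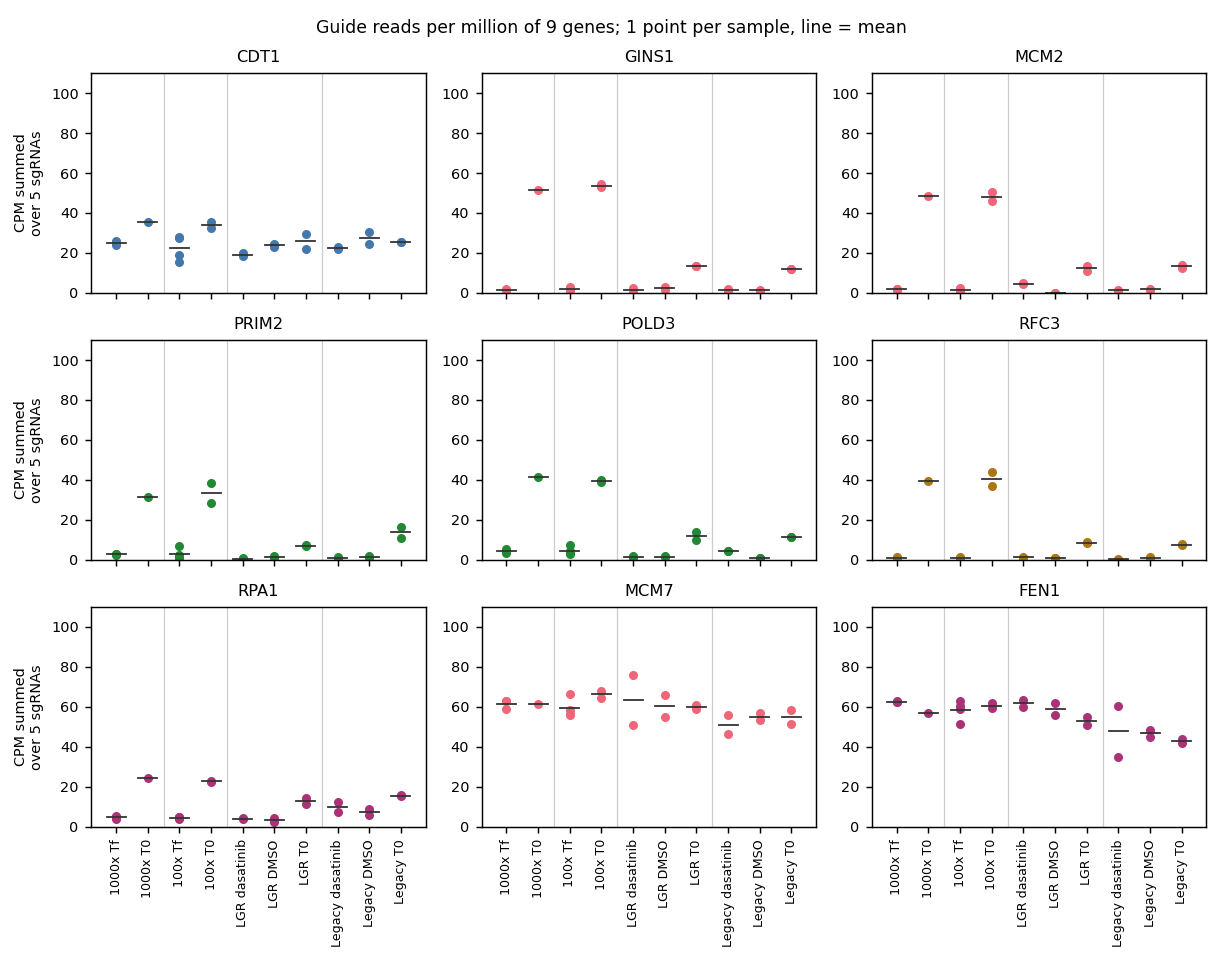
CPM summed over the 5 sgRNAs of 9 genes in each sample of the 4 experiments (vertical axis, linear from 0; lines are group means; 1000x and 100x stand for coverage). GINS1, MCM2 and RFC3 are at 4.86 CPM or less in every Tf, DMSO and dasatinib sample, whereas MCM7 and FEN1 lie between 34.8 and 76.1 CPM in those samples.

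PCNA, the clamp itself, showed how far guides of 1 gene can differ. In the 1000-fold screen 2 of its 5 guides were at -7.70 and -5.40 and the other 3 lay between -0.10 and 0.12, and the phenotype of -4.32 ± 0.93 (SD, n = 3) was not called (adjusted p = 0.6, exact Mann-Whitney). The guide with its PAM at 5100176 on chromosome 20 (hg19) had 0.293, 0.236 and 0.0811 CPM in the Tf samples, against 7.08 CPM in T0, and the guide at 5100179 had 0.00946, 0.151 and 0.00901 CPM, against 4.60 CPM. The guide at 5100173, on the opposite strand 3 bases from the nearest active one, had 9.72, 9.22 and 8.55 CPM in the Tf samples, against 8.55 CPM in T0. By edgeR the active guides fell by 5.17 ± 0.45 and 6.38 ± 0.76 on the log2 scale (SE, adjusted p = 1.58e-13 and 1.98e-09). Summed over 5 guides, PCNA was at 25.0, 23.0 and 23.1 CPM in the 1000-fold Tf samples against 33.4 CPM in T0, at 18.1, 22.6, 27.2 and 26.4 CPM in the 100-fold Tf samples against 38.6 and 33.0 CPM in T0, at 19.3 and 23.3 CPM in LGR DMSO against 22.6 and 24.8 CPM in T0, and at 29.6 and 27.8 CPM in legacy DMSO against 24.2 and 28.4 CPM in T0. The sum, which takes all 5 guides, fell in both survival screens (-0.55 ± 0.08 and -0.63 ± 0.16, SE, adjusted p = 1.97e-11 and 0.00496 by edgeR) and not in DMSO. For the gene score in DMSO, the 3 guides past the minimum were the inactive ones.

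RFC2, a small clamp loader subunit, had the same split. Its active guides, 3 bases apart, were at -7.63 and -4.98 in the 1000-fold screen and its other 3 guides lay between -0.28 and 0.16. RFC2 sums were 20.6, 21.1 and 23.4 CPM in the 1000-fold Tf samples against 33.7 CPM in T0, 20.3, 23.5, 15.2 and 15.8 CPM in the 100-fold Tf samples against 37.4 and 31.0 CPM in T0, 23.5 and 23.9 CPM in LGR DMSO against 18.9 and 25.2 CPM in T0, and 34.9 and 37.5 CPM in legacy DMSO against 43.7 and 37.7 CPM in T0. The gene was called in the 100-fold screen alone (-4.56 ± 0.82, SD, n = 4, adjusted p = 0.000734, exact Mann-Whitney). Over all members, the number of guides below the 5th percentile of non-targeting guides (-0.29) in the 1000-fold screen was 5 for 22 genes, 4 for 5, 3 for 5, 2 for 2, 1 for 4 and 0 for 2. In all, 153 of 200 member guides were below that line, against 13% of targeting guides. The details of the PCNA guides were chosen after their values were seen.

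The 3 RPA subunits were depleted, and FEN1 and LIG1 kept most of their starting level. RPA1, the large subunit of the single-strand binding complex, was at 3.94, 4.77 and 5.28 CPM in the 1000-fold Tf samples, against 24.5 CPM in T0. At 100-fold coverage RPA1 was at 4.34, 4.96, 4.69 and 3.95 CPM in Tf, against 22.8 and 22.4 CPM in T0. In DMSO it was at 2.29 and 4.34 CPM against 14.5 and 11.2 CPM in T0 for LGR and at 8.59 and 5.75 CPM against 15.1 and 15.9 CPM in T0 for legacy. RPA2 was at 5.005, 5.05 and 4.32 CPM in the 1000-fold Tf samples, against 44.1 CPM in T0. At 100-fold coverage RPA2 was at 6.10, 3.16, 4.62 and 4.13 CPM in Tf, against 45.05 and 43.7 CPM in T0. Its DMSO levels were 3.79 and 3.99 CPM against 13.8 and 11.9 CPM in T0 for LGR and 5.61 and 5.11 CPM against 16.5 and 17.9 CPM in T0 for legacy. RPA1, RPA2 and RPA3 were called lower in all 4 growth comparisons, with 1000-fold phenotypes of -5.82, -5.71 and -3.83. FEN1, the flap nuclease, held 62.6, 62.3 and 62.4 CPM in the 1000-fold Tf samples, against 56.7 CPM in T0. At 100-fold coverage FEN1 was at 60.1, 59.0, 51.5 and 62.9 CPM in Tf, against 61.9 and 59.2 CPM in T0. In DMSO FEN1 held 61.9 and 55.8 CPM against 54.7 and 50.9 CPM in T0 for LGR and 48.6 and 44.97 CPM against 41.6 and 44.0 CPM in T0 for legacy, so its later samples were at or above T0 in 3 of 4 comparisons and FEN1 had no gene score or gene sum call. LIG1, the DNA ligase that seals Okazaki fragments, held 56.9, 59.9 and 58.0 CPM in the 1000-fold Tf samples, against 62.0 CPM in T0. At 100-fold coverage LIG1 was at 50.1, 46.7, 48.1 and 43.5 CPM in Tf, against 59.3 and 67.8 CPM in T0. It was called lower in the 100-fold screen (-0.66 ± 0.10, SD, n = 4, adjusted p = 0.00111, exact Mann-Whitney), and its DMSO levels were 49.3 and 54.4 CPM against 57.7 and 64.9 CPM in T0 for LGR and 40.1 and 44.3 CPM against 45.1 and 47.3 CPM in T0 for legacy.

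The start sites of these genes are shown because the guides act there. RefSeq (GRCh38.p14) gave the 250 bases upstream of the start for 34 of the 40 members. Letters of the kind bound by E2F factors, which switch on replication genes as cells enter S phase, were searched on both strands as TTCCCGC or TTGGCGC and likewise as TTCGCGC or TTGCCGC, overlapping runs counted separately. They were found upstream of 16 of 34 members (47.1%) and of 2477 of 13887 library genes (17.8%), which is a description of letters, not of binding. By role they were upstream of 3 of 8 origin licensing, 4 of 9 helicase, 4 of 8 polymerase, 3 of 6 clamp and 2 of 3 RPA and flap genes. The 3 sequences below are the upstream regions of MCM6 and RFC3, which were strongly depleted, and of MCM7, which was not, each 5′ to 3′ on the strand of the gene with the runs in capitals. MCM6 lies at chr2:135876444-135876693 (minus strand), RFC3 at chr13:33817899-33818148 (plus strand) and MCM7 at chr7:100101398-100101647 (minus strand, the farthest upstream of its RefSeq starts). All 3 printed regions carried the letters, so their presence did not separate these 3. Another MCM7 start (chr7:100100530-100100779) had 0 runs, as had the depleted GINS1 and MCM2. Depleted and other members were not compared as sets.
MCM6: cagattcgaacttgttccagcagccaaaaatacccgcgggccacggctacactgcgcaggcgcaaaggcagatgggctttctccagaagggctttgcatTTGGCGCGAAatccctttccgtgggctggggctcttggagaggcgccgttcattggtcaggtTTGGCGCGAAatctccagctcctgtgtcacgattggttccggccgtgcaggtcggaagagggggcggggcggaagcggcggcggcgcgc
RFC3: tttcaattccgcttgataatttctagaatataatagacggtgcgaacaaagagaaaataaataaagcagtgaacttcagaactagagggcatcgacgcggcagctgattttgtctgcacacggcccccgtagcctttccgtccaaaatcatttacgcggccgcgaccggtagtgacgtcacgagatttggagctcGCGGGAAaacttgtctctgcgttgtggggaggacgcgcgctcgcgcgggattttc
MCM7: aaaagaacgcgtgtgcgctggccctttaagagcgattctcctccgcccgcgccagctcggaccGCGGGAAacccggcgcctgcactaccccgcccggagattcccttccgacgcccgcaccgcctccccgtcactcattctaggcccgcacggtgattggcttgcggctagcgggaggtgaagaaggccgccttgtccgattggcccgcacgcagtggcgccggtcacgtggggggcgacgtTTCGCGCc

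A guide near a start can also repress a gene that starts close by on the other strand. Of the 34 members with a start in the table, 10 had such a neighbor within 1000 bases. The neighbor was itself called lower in the 1000-fold screen in 3 cases: PRPF38A, a splicing factor gene 179 bases from ORC1 (-3.67), RARS2, a mitochondrial arginyl-tRNA synthetase gene 148 bases from ORC3 (-0.98), and VPS35, a retromer gene 481 bases from ORC6 (-3.06). The part of the neighbors in the ORC1, ORC3 and ORC6 readings was not tested. The start of AP4M1 lies 40 bases from that of MCM7 and the start of TMEM258 lies 312 bases from that of FEN1, and neither neighbor was called. In the 100-fold screen SMYD4, 103 bases from RPA1, was called too (-0.81).

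Of 37 partner genes that work beside this machinery, 20 were called lower in the 1000-fold screen (7.9% of all genes), 18 in the 100-fold screen (7.31%), 16 of 36 scored in LGR DMSO (6.78%) and 14 of 34 in legacy DMSO (6.14%). Their median phenotype was -1.51 in the 1000-fold screen, beside -0.05 for all genes. In the 1000-fold screen these were 6 of 10 firing factors and kinases, 0 of 3 accessory polymerase subunits, 4 of 11 fork protection and alternative loader genes, 5 of 8 Okazaki, topoisomerase and histone deposition genes and 5 of 5 nucleotide supply genes. The lowest phenotypes were those of RRM1, the large subunit of ribonucleotide reductase (-5.48 ± 0.76, SD, n = 3), CHAF1B, a histone chaperone subunit (-5.04 ± 0.34), and CLSPN, a checkpoint adaptor at the fork (-4.57 ± 0.51). In the 100-fold screen RRM1 (-7.17), CHAF1B (-5.98) and TICRR, a factor needed for origin firing (-5.41), were lowest. In LGR DMSO CHAF1B (-5.11), TIMELESS of the fork protection complex (-3.98) and TOPBP1 (-3.95, not called) were lowest, and in legacy DMSO TOP2A, topoisomerase II alpha (-4.43), DUT, the dUTPase (-3.88, not called), and DTYMK, thymidylate kinase (-3.63).

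The effects were compared between screens by limma on each gene's mean log2(CPM + 1), with guides past the minimum in both. Between the 100-fold and 1000-fold survival screens none of 40 members differed after adjustment (3 at an unadjusted p under 0.05), where 0% of all genes did. Between LGR and legacy DMSO against T0, 3 of 39 members differed, against 0.331% of all genes, and 14 had an unadjusted p under 0.05. Unadjusted counts, here and below, were not made over all genes or guides, so they show nothing particular to members. GINS4 fell further with the LGR library, to 3.43 and 4.92 CPM in DMSO against 32.9 and 32.6 CPM in T0, than with the legacy library, where it was at 15.9 and 13.2 CPM in DMSO against 41.9 and 40.9 CPM in T0. The difference of the log2 changes, LGR minus legacy, was -0.72 ± 0.15 for GINS4 (SE, adjusted p = 0.0424 by limma). POLA2 fell less with the LGR library, at 8.13 and 4.34 CPM in DMSO against 14.9 and 16.1 CPM in T0, than with the legacy library, at 3.27 and 3.49 CPM in DMSO against 24.0 and 25.2 CPM in T0 (difference 1.17 ± 0.20, SE, adjusted p = 0.0104 by limma, over 2 guides). PRIM2 also fell less with the LGR library (difference 1.14 ± 0.22, SE, adjusted p = 0.0215 by limma, over 1 guide). Without LGR T0 sample A no member passed, and without LGR T0 sample B, legacy T0 sample A or legacy T0 sample B 1 did.

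Member guides were already lower than in the plasmid pool when the screens began. Against the plasmid pool, 15 of 40 members were called lower in the 5 LGR T0 samples together, where 1.51% of all genes were, and 19 of 40 in the legacy T0 samples, where 2.41% were. By edgeR 0 of 200 member guides were lower in LGR T0 (23 at an unadjusted p under 0.05, 0 by DESeq2, 0.0825% of all guides called) and 88 of 200 in legacy T0, against 2.79% of all guides. The LGR T0 samples fell into their screens of origin. Over all 5 guides the median member gene was between -0.13 and -0.08 on the log2 scale relative to plasmid in the 3 survival T0 samples, at -1.06 and -1.03 in the 2 dasatinib-screen T0 samples, and at -0.93 and -0.91 in the legacy T0 samples. With the survival T0 samples alone 2 members were called (0.117% of all genes), and with the dasatinib-screen T0 samples alone 22 (2.55%). The LGR plasmid pool was sequenced on a HiSeq and all other samples on a NextSeq, and the part of the instrument was not tested.

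A direct comparison of LGR T0 samples, chosen after the data were seen, used no plasmid. In the dasatinib-screen T0 relative to the survival T0, 23 of 40 members were called lower (2.96% of all genes), and by edgeR 102 of 200 member guides (3.42% of all guides). The median phenotype was -1.36 for members and -0.06 for all genes. By role it was -0.50 for origin licensing (1 of 8 called), -1.06 for the helicase (7 of 12), -1.75 for the polymerases (8 of 9), -2.34 for the clamp (4 of 6) and -1.21 for RPA and flap (3 of 5). The 100-fold survival T0 samples have the coverage of the dasatinib screen, and without the 1000-fold T0 sample 22 members were called. The dasatinib-screen T0 was taken after 5 days of puromycin, and the screens also differ in transduction, which cannot be told apart from time. Titration samples were given 5 days of puromycin as well, per the paper. Relative to plasmid, the median member gene was -0.34 and -0.31 in the LGR 100-fold titration samples. It was -1.03 and -1.06 in the LGR dasatinib-screen T0 samples, and the part of selection time was not tested.

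**Figure D3:**
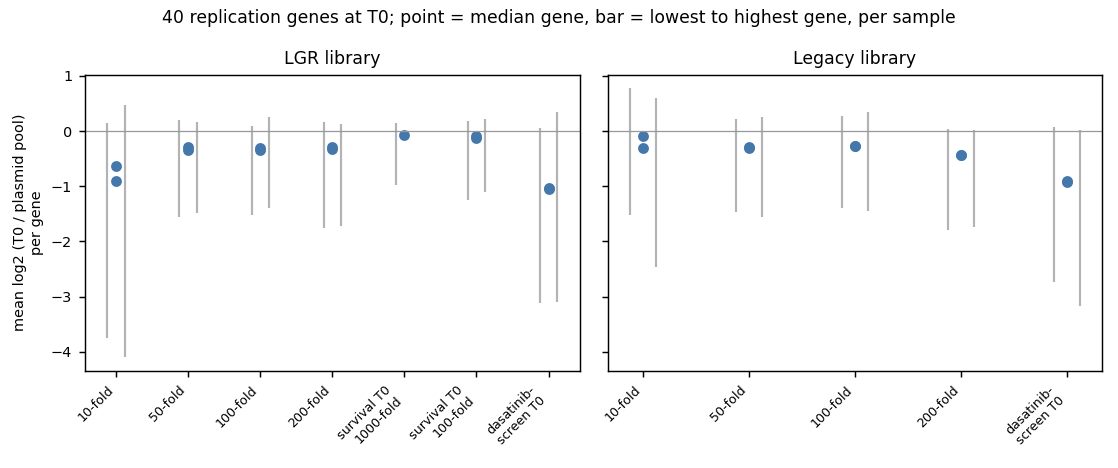
Mean log2 level of each member gene's 5 guides relative to the plasmid pool of its library, for transduced samples taken before screening; points are the median of 40 genes in 1 sample and bars run from the lowest to the highest gene. The survival T0 samples lie near 0, and the dasatinib-screen T0 samples of both libraries lie near -1.

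The lowest member phenotypes at LGR T0 were those of CDT1, RPA1, MCM10, MCM2 and POLA2, while at legacy T0 the lowest were those of CDT1, MCM2, RPA1, RFC3 and RFC1. CDT1 guides held 29.6 and 22.2 CPM in the LGR dasatinib-screen T0 samples, 32.6 and 35.3 CPM in the 100-fold and 35.3 CPM in the 1000-fold survival T0 samples, against 60.6 CPM in the LGR plasmid, and 25.7 and 25.2 CPM in the legacy T0 samples, against 41.8 CPM in the legacy plasmid. Its phenotype was -3.01 ± 1.58 (SD, n = 5) with LGR and -4.08 ± 0.92 (SD, n = 2) with legacy, and neither was called (adjusted p = 0.523 and 0.658, exact Mann-Whitney). RPA1 guides held 14.5 and 11.2 CPM in the LGR dasatinib-screen T0 samples, 22.8 and 22.4 CPM and 24.5 CPM in the survival T0 samples, against 40.8 CPM in the LGR plasmid, and 15.1 and 15.9 CPM in legacy T0, against 48.3 CPM in the legacy plasmid. All RPA1 T0 samples lay below their plasmid pool, and the phenotype was called in both libraries (-2.52 ± 1.83, n = 5, and -3.50 ± 0.46, n = 2, SD). MCM10 held 9.07 and 12.4 CPM in the LGR dasatinib-screen T0 samples, 25.8 and 25.3 CPM and 29.5 CPM in the survival T0 samples, against 55.7 CPM in the LGR plasmid, and 14.2 and 12.9 CPM in legacy T0, against 38.1 CPM in the legacy plasmid. MCM2 held 13.6 and 10.9 CPM in the LGR dasatinib-screen T0 samples, 45.9 and 50.6 CPM and 48.4 CPM in the survival T0 samples, against 64.5 CPM in the LGR plasmid, and 13.9 and 12.7 CPM in legacy T0, against 63.5 CPM in the legacy plasmid. MCM10 and MCM2 were called in both libraries. POLA2 held 14.9 and 16.1 CPM in the LGR dasatinib-screen T0 samples, 32.7 and 32.2 CPM and 31.6 CPM in the survival T0 samples, against 38.1 CPM in the LGR plasmid, and 24.0 and 25.2 CPM in legacy T0, against 59.8 CPM in the legacy plasmid, and was called with legacy only (adjusted p = 0.122 with LGR and 0.000853 with legacy, exact Mann-Whitney). In the transduction titration the median member gene stood at -0.34 to -0.29 relative to plasmid in the LGR samples of 50-fold to 200-fold coverage, at -0.31 to -0.27 in the legacy samples of 50-fold and 100-fold coverage, and at -0.44 in the 2 legacy samples of 200-fold coverage. At 10-fold coverage it was -0.91 and -0.63 with LGR and -0.10 and -0.30 with legacy, where non-targeting guides were themselves so scattered that their 5th percentile lay at -3.84 and -3.21 with legacy.

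Set against the plasmid pool, the end points of all screens were low. The median member gene was between -2.78 and -2.58 in the 1000-fold Tf samples and between -3.32 and -2.99 in the 100-fold Tf samples. In the LGR dasatinib screen it was -3.23 and -3.22 with dasatinib and -3.64 and -3.82 with DMSO. In the legacy screen it was -3.04 and -3.02 with dasatinib and -3.47 and -3.25 with DMSO, so over the 40 genes it stood higher in each dasatinib sample than in either DMSO sample of the same library, a difference given here with no test. By role this held for origin licensing and the helicase in both libraries. The polymerases ran the other way with LGR, at -4.33 and -4.55 with dasatinib and -3.83 and -4.04 with DMSO, and were higher with dasatinib in legacy. RPA and flap was at -4.62 and -3.43 with dasatinib and -3.60 and -3.69 with DMSO in LGR, so those samples overlapped, as did the clamp in both libraries. In legacy RPA and flap was higher with dasatinib, at -1.76 and -1.94 against -2.73 and -2.91 with DMSO.

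**Figure D4:**
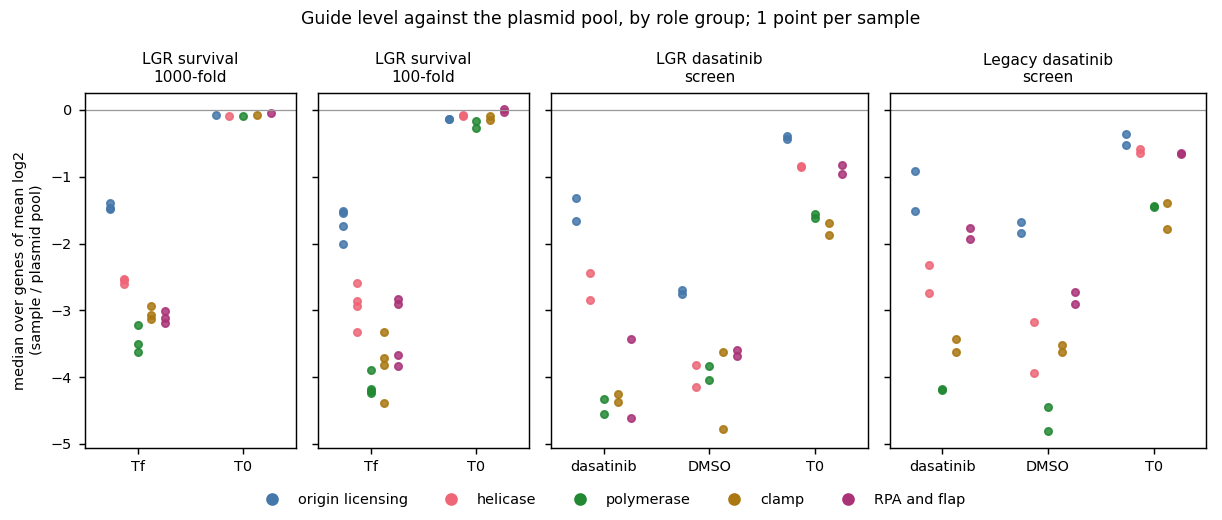
Median over the genes of each role group of the mean log2 level relative to the plasmid pool, 1 point per sample, with dasatinib or Tf left of DMSO and T0. The T0 points lie close to 0 in the survival screens and below 0 in the dasatinib screens, and the end points lie lower in every panel.

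With dasatinib few members passed a test. By gene score 2 of 27 scored members were called higher with dasatinib than with DMSO in the LGR screen, where 0.717% of all genes were, and 0 were called lower (0.447%). In the legacy screen 0 of 31 scored members were called in either direction, where 0.732% of all genes were called higher and 0.527% lower. By edgeR 0 of 155 tested member guides were higher with LGR (22 at an unadjusted p under 0.05, 0.0954% of all guides called) and 0 were lower (6 unadjusted, 0.00393%, 0 by DESeq2). With legacy 2 of 160 were higher (0.572% of all guides called) and 0 lower (4 unadjusted, 0.0349%). DESeq2 called 9 member guides higher with LGR, where it called 1.71% of all guides, and in legacy 8 higher, where it called 2.04%, and 1 lower, where it called 0.368%. These guide counts moved with single samples, and so did the share of all guides. Without dasatinib sample 1 or 2 the higher count was 18 of 150 or 20 of 148 with LGR, against 12% or 11.7% of all guides, and 17 of 154 or 16 of 150 with legacy, against 9.71% or 9.47%. Without either DMSO sample it was 0 with legacy, against 0.179% or 0.177%. The median phenotype was 0.53 for scored members and 0.03 for all genes with LGR, and 0.35 and -0.01 with legacy. Only guides that kept 50 reads in 1 arm were scored: 73 of 200 with LGR, of which 15 passed through the dasatinib arm alone and 3 through the DMSO arm alone, and 86 of 200 with legacy, of which 16 and 6 did so. A guide that passed through 1 arm alone had to differ, so these counts and medians do not speak for the 40 genes.

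The 2 called genes were MCM5 and MCM6, ring subunits of the helicase. MCM5 guides held 13.3 and 21.5 CPM in the LGR dasatinib samples, against 5.12 and 3.99 CPM in the DMSO samples, and 16.1 and 20.3 CPM against 12.1 and 7.38 CPM in the legacy screen. MCM6 guides held 10.2 and 22.9 CPM in the LGR dasatinib samples, against 5.30 and 3.42 CPM in the DMSO samples, and 12.3 and 15.2 CPM against 8.48 and 14.6 CPM in the legacy screen. The 2 groups were separate for MCM5 in both screens and for MCM6 with LGR, and overlapped for MCM6 with legacy. Both calls rest on 2 guides each that passed the minimum through the dasatinib arm alone (phenotypes 2.45 ± 0.71 and 2.75 ± 0.93, SD, n = 2). Without dasatinib sample 2 neither gene was called, and without DMSO sample 2 only 1 of them was. Over all 5 guides the log2 fold change was 1.99 ± 0.37 for MCM5 and 1.98 ± 0.47 for MCM6 with LGR (SE, adjusted p = 0.0617 and 0.118 by edgeR on gene sums), and 0.96 ± 0.32 and 0.31 ± 0.33 with legacy (adjusted p = 0.164 and 0.662).

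By gene sums, which cover all 40 members, 1 was higher with dasatinib in the LGR screen (0.777% of all genes) and 1 in the legacy screen (1.75%), and none was lower (0.208% and 0.452%). Unadjusted, 9 members were higher in each screen and 1 was lower with LGR. The sum was positive for 29 of 40 members with LGR and for 27 of 40 with legacy, with a median log2 fold change of 0.30 in each. The unadjusted counts, signs and medians were not set beside those of all genes, so no shift particular to members follows. MCM2 was the one called with LGR, at 4.86 and 4.19 CPM in the dasatinib samples, against 0.0602 and 0.116 CPM in the DMSO samples. The DMSO samples held 3 MCM2 reads in all and the dasatinib samples 146, a ratio of 51.1 with a 95% counting interval (exact binomial) of 17.1 to 250.5, and 113 of the 146 reads came from 1 guide. This interval covers counting error only, since reads of amplified DNA are not independent molecules. With legacy MCM2 was at 1.08 and 1.53 CPM with dasatinib, against 2.12 and 1.51 CPM with DMSO. POLD3 was the one called with legacy, at 4.58 and 4.37 CPM with dasatinib, against 0.687 and 0.813 CPM with DMSO (2.62 ± 0.56, SE, adjusted p = 0.0453 by edgeR on gene sums), and at 1.74 and 0.924 CPM against 1.63 and 1.33 CPM with LGR. The 2 legacy guides called higher were a GINS2 guide (PAM 85722493, hg19, 2.64 ± 0.41, SE, adjusted p = 0.025 by edgeR) and an MCM4 guide with 128 reads in the dasatinib samples and 0 in the DMSO samples, at least 44.4-fold higher when 3 reads over the group are set for a count of 0 (adjusted p = 0.0279 by edgeR). Neither guide was called with LGR. MCM2, POLD3 and these 2 guides were named after their values were seen.

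**Figure D5:**
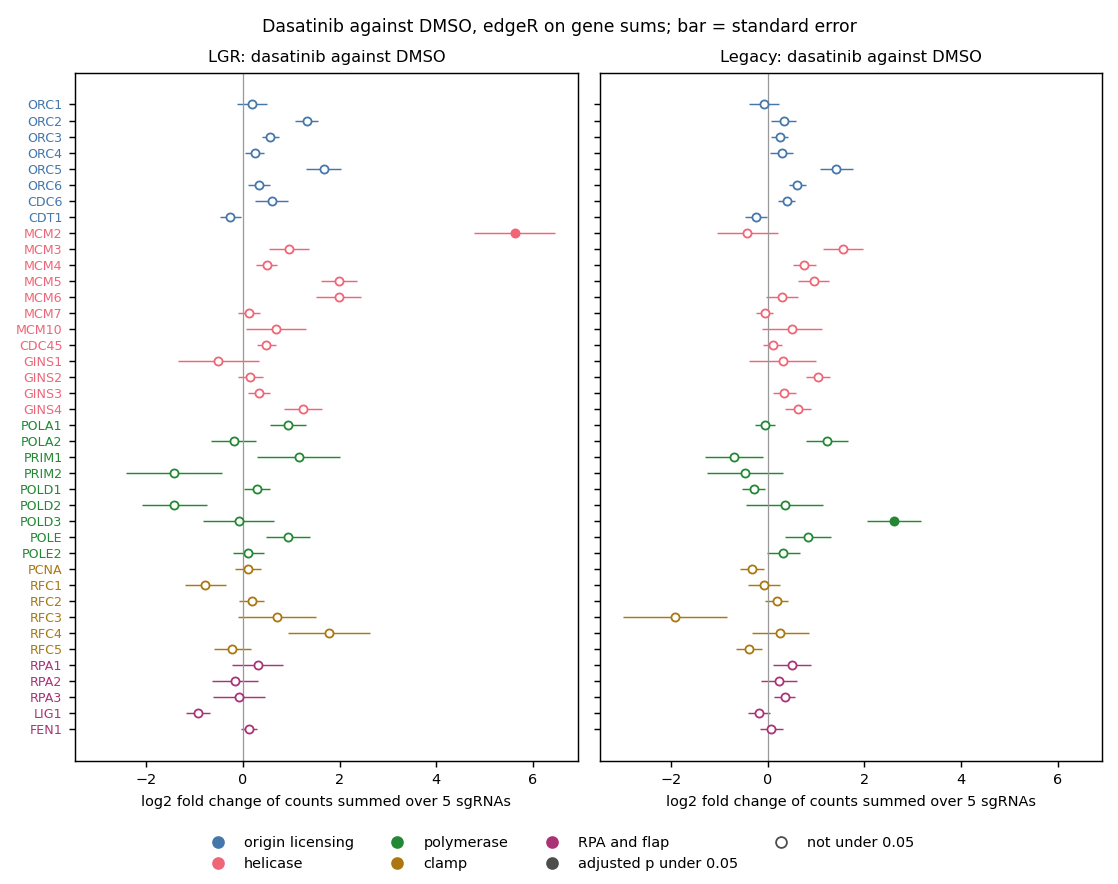
Log2 fold change of counts summed over the 5 sgRNAs of each gene, dasatinib against DMSO, in the LGR and legacy screens (bars are standard errors; filled points passed an adjusted p of 0.05 by edgeR). The points scatter slightly right of 0 with wide bars, and only MCM2 with LGR and POLD3 with legacy are filled.

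Outside the helicase no member was called by gene score with dasatinib at the minimum count of 50. Without a minimum ORC2 was called higher with LGR (1.28% of all genes), and with a threshold set on pseudo-genes made of non-targeting guides ORC2 and ORC5 were with LGR (1.71%) and ORC5, ORC6, POLD3 and RPA1 with legacy (1.74%). ORC5 was also called higher in legacy without DMSO sample 1 (0.651%). With LGR the median phenotype was 0.92 for 8 origin licensing genes, 1.35 for 9 scored helicase genes, 0.51 for 4 polymerase genes, -0.09 for 4 clamp genes and -0.71 for 2 of the RPA and flap genes (LIG1 and FEN1). With legacy it was 0.43 for 8, 0.80 for 9, 0.66 for 5, -0.22 for 4 and -0.03 for 5 in the same order. These medians rest only on guides past the minimum. Some of those guides passed through the dasatinib arm alone and so had to differ, and the medians do not rank the role groups. ORC5 held 10.2 and 12.2 CPM with dasatinib against 3.98 and 3.36 CPM with DMSO in LGR, and 25.5 and 16.9 CPM against 10.1 and 6.22 CPM in legacy, separate in both screens, with gene sum fold changes of 1.67 ± 0.37 and 1.43 ± 0.34 (SE, adjusted p = 0.105 and 0.0644 by edgeR). LIG1 ran the other way with LGR, at 31.5 and 20.8 CPM with dasatinib against 49.3 and 54.4 CPM with DMSO (-0.93 ± 0.24, SE, adjusted p = 0.147 by edgeR), and was at 43.9 and 28.4 CPM against 40.1 and 44.3 CPM with legacy. The difference between the libraries in the dasatinib effect was called for 0 of 25 members that could be compared (3 at an unadjusted p under 0.05), and for 0% of all genes by limma. Of the partner genes 1 of 32 scored, DSCC1 of the alternative clamp loader, was called higher with LGR and 0 of 31 with legacy.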

How the data were processed

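The authors sequenced sgRNA cassettes amplified from genomic DNA or plasmid and deposited raw read counts per sgRNA. Per the submitters' processing notes reads were demultiplexed with bcl2fastq and hg19 was the genome build, with versions not given in the sources used here. Counts from 40 CRISPRi samples were used; titles set the groups, including for the 2 HiSeq plasmid samples whose perturbation label is the opposite of their title. The LGR plasmid sequenced on a NextSeq numbers its guides without names and was not used here.

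Counts were scaled to a common total (CPM) by total guide reads, and 0 was set to 1. Gene phenotypes (3 strongest guides) and Mann-Whitney calls against 1895 non-targeting guides were modelled on the study's scheme, which names no minimum count and tests all 5 guides. Here a minimum mean count of 50 in either arm was added, so genes with depleted guides were tested on fewer, down to 1, with an exact two-sided test, midranks for ties and Benjamini-Hochberg adjustment over all genes. edgeR 4.0.16 (quasi-likelihood, TMM, guides that reached 10 counts in 1 sample or more) tested guides and gene sums, limma 3.58.1 tested differences between screens, and DESeq2 1.42.0 was an alternative (R 4.3.3, Python 3.11.15, scipy 1.17.1). A lone sample in an arm is assumed to vary like the other arm. Each test was tried on simulated counts with known changes. Alternatives were other minimums, all guides in place of 3, no non-targeting subtraction, thresholds set on pseudo-genes made of non-targeting guides, a replicate block and leaving out each sample in turn. The members and lists were chosen with earlier results of these data known. Values in every sample are given for the 2 genes of each role with the largest 1000-fold phenotype, genes called with dasatinib, the 5 lowest LGR phenotypes at T0 and genes called lower in under 3 of 4 growth comparisons; of the 37 partners the 3 strongest per growth comparison are named. The comparison of LGR T0 samples and the split of LGR T0 by screen were added after the data were seen. No 2 samples agreed within sampling noise, and none were merged. Guide sequences were not analysed here.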

Additional observations from a re-analysis of the deposited data

Results flagged for a closer look

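A sample stood apart from its group in 2 of 82 groups of 4 or more samples examined, and chance flags about 1 in 20. ORC4 was at -0.81 in the 100-fold Tf sample 4, while the other 3 Tf samples lay between -0.16 and -0.15 relative to T0. POLA1 was at -6.61 in the 100-fold Tf sample 3, while the other 3 lay between -3.97 and -3.47.

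The change with DMSO against T0 differed between the libraries for 3 genes by limma's interaction test, each given as LGR minus legacy on the log2 scale. The difference was -0.72 for GINS4 (-2.06 with LGR and -1.35 with legacy, adjusted p = 0.0424). It was 1.17 for POLA2 over 2 guides (-0.88 with LGR and -2.05 with legacy, adjusted p = 0.0104). It was 1.14 for PRIM2 over 1 guide (-1.56 with LGR and -2.70 with legacy, adjusted p = 0.0215).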

How the results depend on the processing

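Across single members, 3254 recomputed values kept their direction and side of the threshold, 95 passed it anew, 106 no longer passed and 1 turned round, which was RFC3 at T0 against plasmid with the LGR survival T0 samples alone (0.0302). The cause was not tested for any of these changes.

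The median member phenotype with all guides in place of the 3 strongest was -2.59 in the 1000-fold screen, -2.97 in the 100-fold screen, -2.41 in legacy DMSO, 0.48 and 0.27 with dasatinib in LGR and legacy, -0.93 in legacy T0 and -0.88 in the LGR dasatinib-screen T0. Without a minimum count it was -3.30 in LGR DMSO, -3.43 in legacy DMSO, and 0.48 and 0.54 with dasatinib. Without subtraction of the non-targeting median it was -3.63 in the 1000-fold screen and 0.30 and 0.23 with dasatinib. With the dasatinib-screen T0 samples alone the LGR T0 median was -1.54, and 101 guides were lower by edgeR (3.32% of all guides), against 10 guides (0.788%) and 2 genes with the survival T0 samples alone. Gene sums called 0 members lower at LGR T0 (0 of 18788 genes) and 29 at legacy T0 (1030 of 18788 genes). A minimum of 100 left 14 of 33 members called in LGR DMSO (5.36% of all genes) and 10 of 33 in legacy DMSO (4.63%). With dasatinib in LGR it left 0 of 23 (0.496% of all genes higher and 0.234% lower). The normal approximation left 12 of 39, 15 of 39 and 0 of 27 (4.61%, 3.75% and 0%). Members higher with dasatinib in LGR were 4 without a minimum, 5 by the pseudo-gene threshold and 1 by gene sums, and in legacy 7 and 1 by the last 2 (shares of all genes 1.28%, 1.71% and 0.777% in LGR and 1.74% and 1.75% in legacy). DESeq2 called 9 member guides higher with dasatinib in LGR (1.71% of all guides), and 8 higher (2.04%) and 1 lower (0.368%) in legacy. With a pseudocount of 5 CPM 1 member differed between the libraries in DMSO.

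Replicate numbers did not pair the samples. With the replicate number as a block, 3 member guides were higher with dasatinib in LGR (0.772% of all guides) and 5 in legacy (2.03%). In the 100-fold screen 136 member guides were lower with that block (5.95% of all guides). With the T0 sample as the block 122 were lower (5.59%).

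Leaving out 1 sample at a time gave 28 to 29 called members and 151 to 153 guides in the 1000-fold screen, 28 to 31 and 70 to 135 in the 100-fold screen, 21 to 22 and 38 to 120 in LGR DMSO, and 21 to 25 and 59 to 110 in legacy DMSO. The medians ran from -3.74 to -3.70, from -4.42 to -4.11, from -2.66 to -2.10 and from -3.42 to -2.85. In the 100-fold and DMSO fits the share of all guides called moved as well. With dasatinib in LGR 0 to 2 members and 0 to 20 guides were higher (0.0118% to 12% of all guides), 0 to 8 guides were lower (0.00394% to 9.08%) and the median was 0.48 to 0.58. In legacy 0 to 1 members and 0 to 17 guides were higher (0.177% to 9.71%), 0 to 5 guides were lower (0.009% to 6.19%) and the median was 0.32 to 0.55. At LGR T0 11 to 17 members were called (median -0.93 to -0.54) and at legacy T0 17 (-1.35 to -1.27). In the LGR dasatinib-screen T0 21 to 24 members and 81 to 100 guides were lower (-1.41 to -1.22). Between 0 and 2 members differed between the libraries in DMSO. All 28 members called in the 1000-fold screen stayed called in each such fit, 26 of 29 did in the 100-fold screen (not CDT1, RFC2 and RFC5), 19 of 23 in LGR DMSO and 18 of 23 in legacy DMSO. Counts of a few reads limit the DMSO and dasatinib values of the most depleted guides.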
